A study of Mus musculus with 30 samples.

Results

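The genes described here are 9 receptors and regulators of T cell help and suppression: Il2ra, Ctla4, Icos, Pdcd1, Tnfrsf4, Tnfrsf18, Lag3, Tigit and Ikzf2. They were chosen by symbol, with earlier results of these data known. All 9 stood among the 23060 genes of the deposited table and among the 14083 that reached 1 FPKM in at least 2 libraries. FPKM are fragments scaled to transcript length and library size, so levels can be compared between genes.

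Mouse cells were sorted and measured by poly-A selected, non-stranded RNA sequencing. Control libraries, annotated as wild type, came from blood CD4 T cells (n = 2), CD8 T cells (n = 3), B220+ B cells (n = 3) and Gr1+ Cd11b+ myeloid cells (n = 2), and from bone marrow LKS-SLAM cells (n = 3), a fraction enriched for haematopoietic stem cells. Libraries titled rEC, annotated as derived, came from the same 5 cell types (n = 2, 3, 3, 2 and 3), and are read here as blood and marrow cells descended from endothelial cells converted with the factors Fosb, Gfi1, Runx1 and Spi1 (FGRS). Another 3 libraries, also annotated as derived, hold FGRS cells that adhered to a layer of human umbilical vein endothelial cells, taken on day 28 as KLS cells, the Kit-bearing, Sca1-bearing fraction without lineage markers. Replicate 2 of the rEC LKS-SLAM and B cells is titled as clone 47G1 in a primary recipient, and replicate 3 of both, replicate 2 of the rEC CD4 cells and replicates 2 and 3 of the rEC CD8 cells are titled secondary. No title names a recipient for the other rEC libraries, so transplant round and replicate cannot be told apart. Strain, age and the number of animals are not given in the sources used here, and p-values measure the spread between libraries, which may be technical.

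Regulatory T cells are a suppressive subset of CD4 T cells, and blood CD4 cells are a mixture of them with conventional CD4 cells. Regulatory T cells carry the high-affinity interleukin-2 receptor, whose alpha chain is Il2ra, and constitutively make CTLA-4, which takes the B7 ligands away from the costimulatory receptor CD28. ICOS, OX40 (Tnfrsf4) and GITR (Tnfrsf18) are costimulatory receptors, PD-1 (Pdcd1), LAG-3 and TIGIT are inhibitory checkpoint receptors induced on activated T cells, and Helios (Ikzf2) is a zinc finger factor of the Ikaros family found in most thymus-derived regulatory T cells.

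The members lie on 5 chromosomes of GRCm38, and all are protein-coding. Il2ra lies on chromosome 2 (11642807 to 11693193, plus strand) and Tigit on chromosome 16 (43648867 to 43664146, minus strand). On chromosome 1 lie 4 members: Ctla4 (60887000 to 60915832, plus), Icos (60977927 to 61000320, plus), Ikzf2 (69531214 to 69687245, minus) and Pdcd1 (94038305 to 94052553, minus). Ctla4 and Icos are 62094 bp apart. Tnfrsf4 (156013843 to 156016612, plus) and Tnfrsf18 (156026164 to 156028895, plus) are neighbours on chromosome 4, 9551 bp apart. Lag3 (chromosome 6, 124904361 to 124911705, minus) lies 16139 bp from Cd4, the gene used for sorting. Antisense genes overlap Tnfrsf18 (Gm16008) and Ikzf2 (Gm29114), and non-stranded reads of the members and of these genes cannot be told apart.

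Of the 5 members called higher in control CD4 than CD8 cells, 3 are shown by the 250 bases before their RefSeq start (GRCm38.p6), read 5′ to 3′ on the gene's strand, because T cell receptor signals reach such genes through NFAT and NF-kB. Capitals mark matches on either strand to the NFAT core GGAAA and to the NF-kB pattern of GGGA, any 4 bases and CC. The windows are chr2:11642542-11642791 (plus) for Il2ra, chr1:60908775-60909024 (plus) for Ctla4 and chr16:43664185-43664434 (minus) for Tigit.
Il2ra: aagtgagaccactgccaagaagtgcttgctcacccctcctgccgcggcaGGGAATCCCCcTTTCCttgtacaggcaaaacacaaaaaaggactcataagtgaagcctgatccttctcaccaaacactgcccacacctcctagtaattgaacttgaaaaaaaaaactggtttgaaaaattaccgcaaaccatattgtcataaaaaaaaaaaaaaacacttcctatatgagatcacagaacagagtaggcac
Ctla4: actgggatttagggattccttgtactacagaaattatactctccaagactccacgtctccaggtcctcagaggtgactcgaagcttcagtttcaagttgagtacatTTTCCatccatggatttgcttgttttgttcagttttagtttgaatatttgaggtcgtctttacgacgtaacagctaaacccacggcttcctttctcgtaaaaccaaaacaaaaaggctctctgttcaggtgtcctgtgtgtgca
Tigit: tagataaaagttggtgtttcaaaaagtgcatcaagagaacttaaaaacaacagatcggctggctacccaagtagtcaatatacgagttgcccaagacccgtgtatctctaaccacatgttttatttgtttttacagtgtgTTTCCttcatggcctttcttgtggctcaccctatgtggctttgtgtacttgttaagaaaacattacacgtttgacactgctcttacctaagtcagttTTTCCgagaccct
Il2ra held 1 NFAT core and 1 NF-kB match, Ctla4 1 NFAT core and Tigit 2, and the marked matches do not overlap. Of 32851 mouse promoter windows of this length, 55.6% held the NFAT core and 17.6% the NF-kB pattern, so these matches are common. The patterns TGANTCA (AP-1, in 6.75% of windows) and TTCNNNGAA (STAT, in 7.02%) were searched on both strands and were not in these 3 windows.

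Library quality bears on the groups as follows. Summed FPKM ranged from 510115 to 727885, genes at 1 FPKM or more from 10165 to 12550, and relative depth from 0.588 to 1.13 of B cell control replicate 2. In CD4 control replicate 1 a single gene model, Gm25500, made up 24.0% of that sum. The sorting genes matched the T cell labels: Cd4 ran from 242 to 364 FPKM in CD4 libraries and from 0 to 0.272 in CD8 libraries, and Cd8a from 363 to 426 in CD8 and from 0.385 to 2.87 in CD4 libraries. A pair of libraries stood apart. B cell rEC replicate 1 carried Cd3e, a T cell receptor subunit, at 198 FPKM and Cd8a at 184 beside B cell markers, and LKS-SLAM rEC replicate 2 held less of the stem cell genes Kit (63.5 FPKM against 109 to 155 in the other LKS-SLAM libraries) and Procr (7.52 against 72.4 to 154). Its summed macrophage marker level was 270.2 FPKM, against 2.83 to 13.8 in the others. Apart from this pair, LKS-SLAM control replicate 3 had the lowest relative depth of all libraries (0.588). Its eosinophil, basophil and mast cell marker sum was 39.6 FPKM, against 2329 and 3941 in the other controls. For 8 of 9 members it was the highest of its group, so contrasts with control LKS-SLAM cells lean on it.

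**Figure D1:**
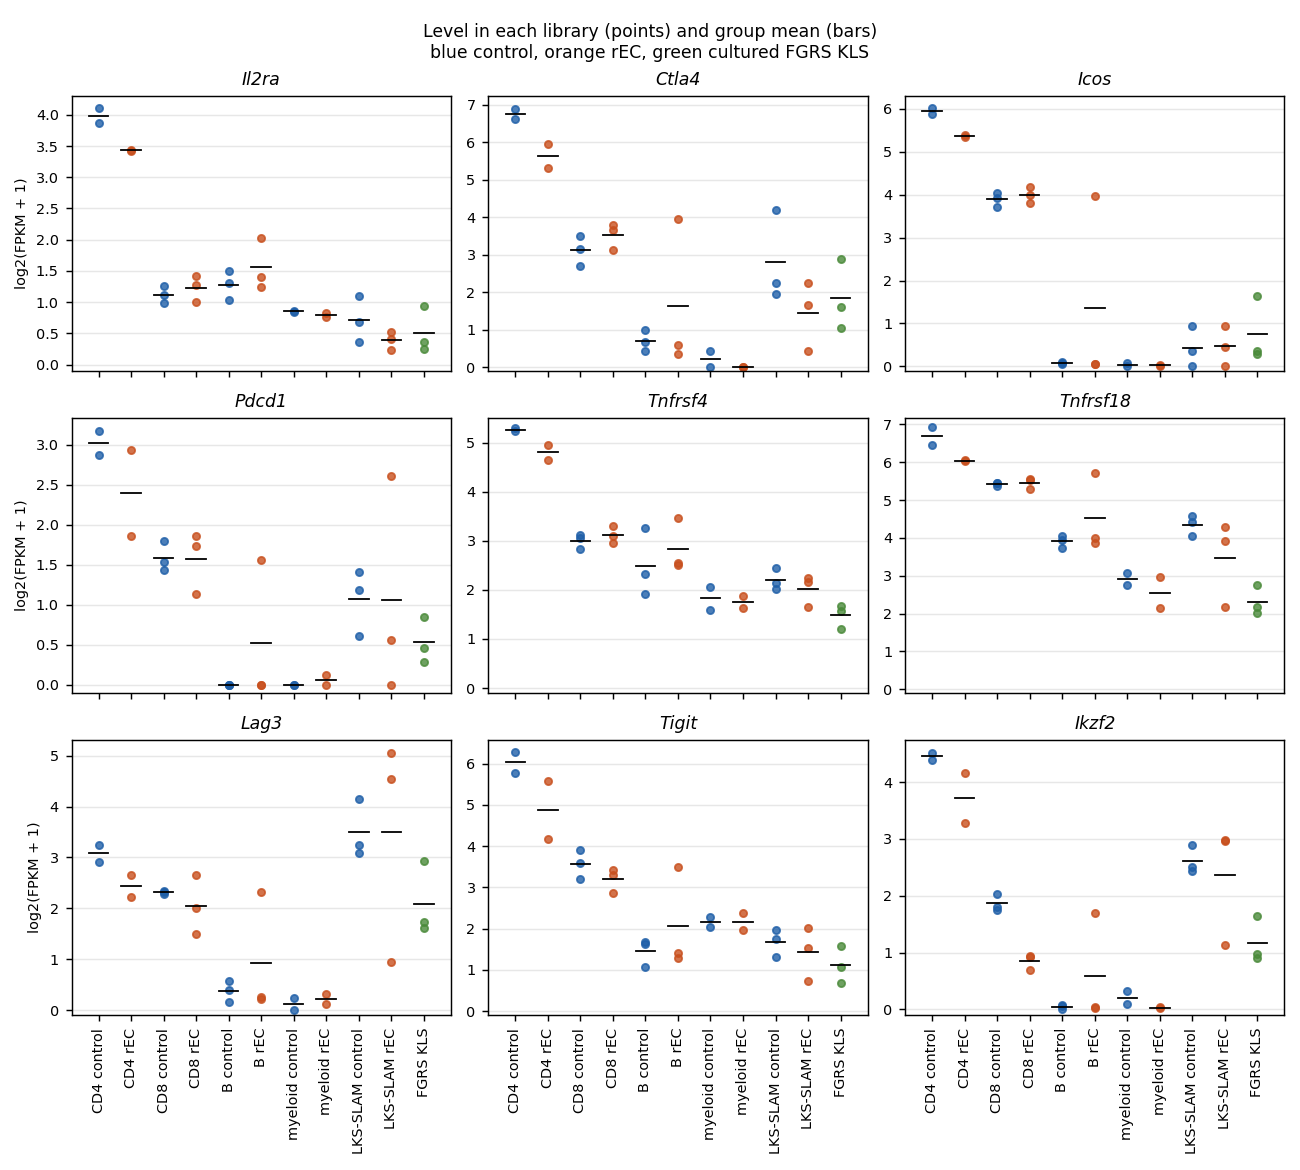
Level of each member as log2(FPKM + 1) on the y axis, by group on the x axis, with a point for each of the 29 grouped libraries and a bar at the mean of the log2 values. Group means were highest in CD4 cells for 8 members and in LKS-SLAM cells for Lag3, while single libraries of Pdcd1 and Lag3 overlapped between these groups. For every member 1 rEC B cell library stood above the other B cell libraries.

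The order of group means was alike for most members. Control CD4 cells stood first and rEC CD4 cells second for 8 members, at 108 ± 14.8 and 50.1 ± 16.3 FPKM for Ctla4 and 60.6 ± 3.71 and 40.2 ± 0.917 for Icos (SD, n = 2 each). Pdcd1 overlapped between these 2 groups (7.19 ± 1.20 and 4.61 ± 2.82 FPKM) and from there between every pair of neighbours down to the FGRS cells. CD8 cells of both origins came next for Icos, Tnfrsf4, Tnfrsf18, Pdcd1 and Tigit, and their ranges overlapped with each other and with the group that followed. Except for Pdcd1, that group was the rEC B cells, which overlapped only through replicate 1, the library that carried Cd3e and Cd8a. For Il2ra the rEC B cells (2.02 FPKM), control B cells (1.45), rEC CD8 cells (1.36) and control CD8 cells (1.18) followed, each overlapping its neighbour. For Ikzf2 the CD4 cells were followed by control LKS-SLAM cells (5.16 ± 1.11 FPKM, SD, n = 3), below rEC CD4 cells with no overlap and above control CD8 cells. Lag3 had another order, with rEC LKS-SLAM cells (18.5 ± 16.0 FPKM) and control LKS-SLAM cells (10.9 ± 5.06) before control CD4 cells (7.52 ± 1.43), and these 3 groups overlapped in sequence. Myeloid cells were last for Ctla4, Icos and Lag3.

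The first comparison asks which T cells carry the 9 transcripts. In control blood, CD4 cells held more of every member than CD8 cells, with no overlap between libraries for any of the 9, a pattern seen with CD4 above CD8 for 29.4% of all genes tested. The difference passed for 5 of the 9, namely Il2ra, Ctla4, Tnfrsf4, Tigit and Ikzf2 (limma on log2(FPKM + 1), Benjamini-Hochberg adjusted p under 0.05). Of all genes tested, 3.48% passed, 1.56% as higher in CD4 cells. The median difference of the members was 2.26 on the log2 scale, and that of all genes tested was 0.02. Because the members were chosen with earlier results of these data known, these contrasts with all genes are descriptions. A higher share of cells of 1 type and more RNA per cell cannot be told apart in these bulk samples.

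Il2ra, the interleukin-2 receptor alpha chain, stood at 16.3 and 13.6 FPKM in control CD4 cells and at 1.16, 0.99 and 1.39 in control CD8 cells. Both CD4 libraries were thus far above all CD8 libraries, 12.7-fold by the means, and the log2 difference was 2.87 with an SE of 0.25 (limma, adjusted p = 1.92e-07; all errors of differences below are SE). Ctla4, the inhibitory receptor for B7 ligands, stood at 119 and 98.0 FPKM in CD4 cells and at 7.87, 5.51 and 10.3 in CD8 cells. That is the widest log2 difference of the 9, 3.65 ± 0.79 (limma, adjusted p = 0.00823), but its call ended without CD4 control replicate 1 (adjusted p = 0.138), without replicate 2 (0.0594) and with a pseudocount of 0.1 (0.0701).

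Among the costimulatory receptors, Tnfrsf4 stood at 36.7 and 38.5 FPKM in CD4 cells and at 7.70, 6.17 and 7.31 in CD8 cells. The libraries of each group were close to each other and the difference was 2.26 ± 0.32 (limma, adjusted p = 0.000115). Its neighbour Tnfrsf18 was the most abundant costimulatory member, at 121 and 87.2 FPKM in CD4 cells, yet it was also at 43.1, 42.6 and 40.2 in CD8 cells. The groups did not overlap, and the difference of 1.27 ± 0.48 did not pass (limma, adjusted p = 0.193). Icos, with 63.2 and 57.9 FPKM in CD4 and 14.1, 12.2 and 15.3 in CD8 cells, gave 2.06 ± 0.70 and did not pass (adjusted p = 0.134).

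Among the checkpoint receptors, Tigit stood at 77.5 and 53.7 FPKM in CD4 cells and at 10.99, 8.26 and 14.1 in CD8 cells. Its difference of 2.46 ± 0.51 passed (limma, adjusted p = 0.00611), and the call ended without CD4 control replicate 1 (adjusted p = 0.158). Pdcd1 was low in both, at 8.04 and 6.34 FPKM in CD4 and 1.70, 1.89 and 2.48 in CD8 cells, and Lag3 stood at 6.50 and 8.53 against 4.04, 3.88 and 4.02. Neither passed, with log2 differences of 1.44 ± 0.53 and 0.76 ± 0.79 (limma, adjusted p = 0.179 and 0.827). Ikzf2, the transcription factor, stood at 21.9 and 20.1 FPKM in CD4 cells and at 2.37, 2.51 and 3.11 in CD8 cells. Its difference was 2.59 ± 0.46 (limma, adjusted p = 0.00157), and with a pseudocount of 0.1 the adjusted p was 0.067.

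The number of calls depended on the spread used. With the libraries that stood apart left out of the pooled spread, 8 members passed, all but Lag3, where 11.4% of all genes did. In a model of these 5 libraries alone all 9 passed, Lag3 with adjusted p = 0.0127, where 26.1% of all genes did.

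**Figure D2:**
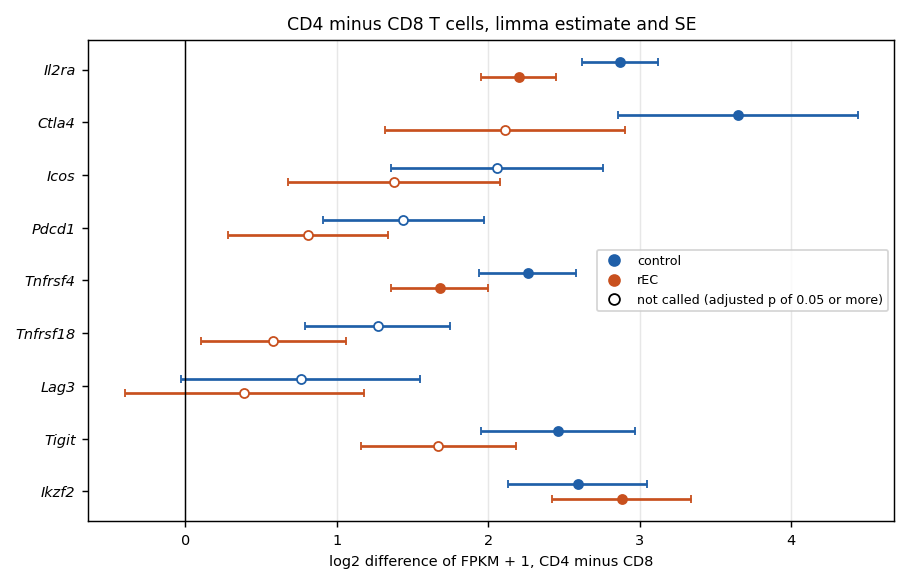
Difference between CD4 and CD8 cells as log2(FPKM + 1) on the x axis for the 9 members on the y axis, in control (blue) and rEC (orange) cells, with limma estimates and standard errors. All 18 estimates lie above 0, filled points mark the 5 control and 3 rEC differences that passed, and the rEC estimate is the smaller for every member except Ikzf2.

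The same order held in the rEC T cells. All 9 members had higher means in rEC CD4 than in rEC CD8 cells, 7 of them with no overlap, against 18.9% of all genes with CD4 above CD8. Il2ra, Tnfrsf4 and Ikzf2 passed, where 1.88% of all genes did and 0.994% as higher in CD4 cells, and the median difference was 1.67 for the members and 0.003 for all genes. Il2ra stood at 9.76 and 9.80 FPKM in CD4 and 1.67, 1.41 and 0.998 in CD8 cells, a difference of 2.2 ± 0.25 (limma, adjusted p = 9.37e-06). Tnfrsf4 stood at 24.0 and 30.2 against 7.57, 8.91 and 6.81 FPKM, a difference of 1.68 ± 0.32 (limma, adjusted p = 0.00368). Ikzf2 stood at 8.78 and 17.0 against 0.89, 0.613 and 0.911 FPKM, 16.0-fold by the means, and its difference was 2.88 ± 0.46 (limma, adjusted p = 0.000748). Without CD4 rEC replicate 2, the adjusted p of Tnfrsf4 was 0.115 and that of Ikzf2 0.0504, so that 1 member was called.

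The remaining 6 members did not pass between the rEC T cells, among them Ctla4, with 38.5 and 61.6 FPKM in CD4 and 11.6, 7.79 and 12.8 in CD8 cells (difference 2.11 ± 0.79, limma, adjusted p = 0.293). Tigit, with 16.9 and 46.99 against 6.34, 9.69 and 8.93 FPKM, gave 1.67 ± 0.51 (limma, adjusted p = 0.123), and the 2 CD4 libraries were far apart. Icos, with 40.8 and 39.5 against 17.0, 13.0 and 14.8, and Tnfrsf18, with 64.4 and 65.2 against 46.1, 45.6 and 37.9, did not overlap. Pdcd1, with 2.62 and 6.60 FPKM against 2.33, 1.19 and 2.64, and Lag3, with 3.66 and 5.32 against 5.28, 1.83 and 2.998, did overlap. Without the libraries that stood apart 6 members passed (Ctla4, Icos and Tigit besides), where 6.58% of all genes did, and in a model of these 5 libraries alone 7, where 6.4% did.

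The remaining genes of the pathways were taken from 7 lists written with earlier results of these data known. Of 14 other genes associated with regulatory T cells, 5 were higher in control CD4 than CD8 cells and 0 lower, with a median difference of 1.24. They were Lrrc32 (8.25 against 0.0236 FPKM), which displays latent TGF-beta on the surface, the chemokine receptors Ccr4 (13.7 against 0.146) and Ccr8 (1.99 against 0.196), Nrp1 (24.1 against 1.91), a semaphorin co-receptor, and Izumo1r (115 against 6.41), which encodes folate receptor 4. In rEC cells 5 were also higher: Lrrc32, Ccr4, Nrp1, Izumo1r and the actin-capping gene Capg (62.9 against 15.1 FPKM). Of all genes tested, 1.56% were called higher in control CD4 cells and 0.994% in rEC CD4 cells. Others of the list showed no such difference in control cells, such as the ectonucleotidase Nt5e (57.3 against 49.3 FPKM) and the integrin Itgae (21.8 against 20.5), and the cytokine Il10 was near the floor (0.367 and 0.0146).

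**Figure D3:**
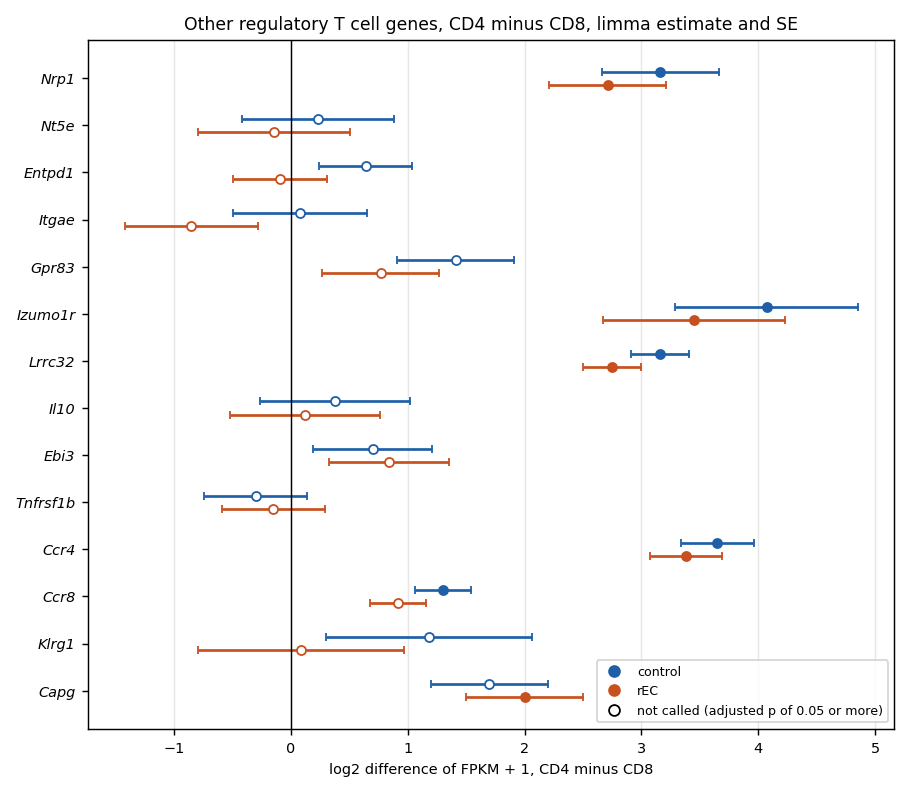
Difference between CD4 and CD8 cells as log2(FPKM + 1) on the x axis for 14 other regulatory T cell genes on the y axis, in control (blue) and rEC (orange) cells, with limma estimates and standard errors. Lrrc32, Ccr4, Nrp1 and Izumo1r passed in both origins, Ccr8 in control cells and Capg in rEC cells.

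The genes of the other lists that passed are named here, where 3.48% of all genes passed in control and 1.88% in rEC cells. As the lists were written with earlier results known, their counts are descriptions. Of 9 genes of interleukin-2 receptor signalling 1 passed, the feedback inhibitor Socs2, higher in CD4 cells of both origins (12.0 against 1.95 FPKM in control, 9.67 against 1.17 in rEC). Il2rb, the receptor's beta chain, stood at 109 FPKM in control CD4 and 274 in control CD8 cells, the other way round from Il2ra, and did not pass (log2 difference -1.30 ± 1.12, limma, adjusted p = 0.75). Of 4 other Ikaros family genes Ikzf4 (Eos) was higher in control CD4 cells (4.89 against 0.673 FPKM, adjusted p = 0.022), while Ikzf1 stood at 142 and 146 FPKM. In rEC cells Ikzf4 stood at 5.07 against 1.09 FPKM and did not pass (adjusted p = 0.103). Of 13 other costimulatory and checkpoint receptors only Cd160 passed, lower in CD4 cells of both origins (1.09 against 8.77 FPKM in control). Among 9 activation and exhaustion regulators the factor Maf was higher in CD4 cells (32.8 against 2.05 FPKM in control) and Eomes, a factor of cytotoxic cells, lower (3.33 against 31.9), in both origins. Of 6 TRAF adaptors 0 passed in either origin (limma, 0 at an unadjusted p under 0.05), and of 10 ligands tested, of 13 in the table, also 0 (3 at an unadjusted p under 0.05 in control and 2 in rEC cells).

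The second comparison asks whether T cells of rEC origin carry the members at control levels. In CD4 cells all 9 members had lower means in rEC than in control libraries, at 46.2 to 72.1% of the control mean, and 0 of 9 passed (limma, 0 at an unadjusted p under 0.05). The median log2 difference was -0.64 for the members and -0.012 for all genes, of which 52.2% lay below 0. For 8 of the 9, all but Pdcd1, both rEC libraries lay below both control libraries, against 21.1% of all genes, and 0.0213% of all genes passed in this comparison. Ctla4, at 119 and 98.0 FPKM in control and 38.5 and 61.6 in rEC cells, gave a log2 difference of -1.13 ± 0.86, and Tigit gave -1.16 ± 0.56 (limma, adjusted p = 1.0 for both).

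The 2 rEC libraries differed from each other. CD4 rEC replicate 1 lay below every control library for 9 of 9 members, at 25.8 to 67.4% of the control mean with a median of 48.7%. Replicate 2, the secondary library, did so for 8 of 9, at 56.8 to 91.9% with a median of 70.8%. Tigit was at 25.8% of the control mean in replicate 1 and Pdcd1 at 91.9% in replicate 2. For Il2ra, Icos and Tnfrsf18 the rEC libraries were close to each other, and for Tigit, Pdcd1 and Ikzf2 they were furthest apart.

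Transcripts of T cells in general were also lower in the rEC CD4 libraries. The summed level of 5 T cell markers (Cd3e, Cd3d, Cd3g, Cd247, Lck) was 1937 and 1811 FPKM in control and 1320 and 1583 in rEC libraries, and Cd3e itself was 285 and 281 against 200 and 235. Relative to Cd3e of the same library, 4 members (Ctla4, Icos, Tnfrsf4 and Lag3) were still below control with no overlap, against 4.68% of all genes, and the other 5 overlapped. For 3 of the 4 the gap was small: the highest rEC and lowest control values were 12.85 and 12.88% of Cd3e for Tnfrsf4, 2.269 and 2.282% for Lag3, and 20.44 and 20.65% for Icos. B cell marker sums were 33.7 and 36.3 FPKM in control and 22.2 and 56.0 in rEC CD4 libraries, and myeloid sums 6.28 and 10.3 against 19.2 and 9.43. The part of these transcripts in the lower levels of the members was not tested. Of the 65 genes of the 7 lists that were tested, 0 passed between origins in CD4 cells (limma, 3 at an unadjusted p under 0.05). The 14 other regulatory T cell genes had a median log2 difference of -0.45, with Capg at 102 ± 13.4 FPKM in control and 62.9 ± 6.29 in rEC cells and Izumo1r at 115 ± 9.02 and 84.9 ± 23.4 (SD, n = 2 each).

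In CD8 cells the members showed no common direction between origins. Log2 differences of 5 members were positive and of 4 negative, with a median of 0.03, and 0 of 9 passed, where 1.13% of all genes did (limma, 1 at an unadjusted p under 0.05). Tnfrsf18 stood at 40.2 to 43.1 FPKM in control and 37.9 to 46.1 in rEC libraries, and Tnfrsf4 at 6.17 to 7.70 and 6.81 to 8.91. The remaining members overlapped likewise, apart from Ikzf2.

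Ikzf2 was lower in every rEC CD8 library, at 2.37, 2.51 and 3.11 FPKM in control and 0.89, 0.613 and 0.911 in rEC cells. The rEC libraries held 23.0 to 34.2% of the control mean, with no overlap, and the log2 difference was -1.02 ± 0.41 (limma, adjusted p = 0.469). It passed without the libraries that stood apart (adjusted p = 0.00418, where 3.22% of all genes passed), in a model of the 6 CD8 libraries alone (0.0216, where 5.77% passed) and with array quality weights (0.000209). The share of all genes that passed with weights is not given here. Nor is the share with no overlap between origins in CD8 cells, so the separation of Ikzf2 is a description. Control CD8 libraries also held more transcripts of other cells: the B cell marker sum was 197 to 469 FPKM in control and 6.74 to 61.8 in rEC libraries, and the myeloid sum 78.4 to 670 against 1.18 to 16.8. Ikzf2 itself was at 0.00478 to 0.052 FPKM in control B cells and 0.0712 to 0.251 in control myeloid cells. The part of B cell and myeloid RNA in its difference was not tested. The NK cell sum (Ncr1, Klrb1c, Klrd1, Klre1) was 375 to 450 FPKM in control and 276 to 472 in rEC CD8 libraries. Most of it was Klrd1, with means of 339.7 FPKM in control and 328.1 in rEC cells. Ncr1 ran from 1.497 to 24.84 FPKM in control and from 0 to 1.844 in rEC libraries. Means were 17.51 and 8.266 FPKM for Klrb1c and 49.04 and 32.39 for Klre1. Ranges of each of these genes overlapped between origins. The part of NK cell RNA in the Ikzf2 difference was not tested. Icosl, the ligand of ICOS, was the one gene of the 7 lists that passed between origins in CD8 cells, at 11.4 ± 4.40 FPKM in control and 3.15 ± 0.927 in rEC libraries (SD, n = 3 each, limma, adjusted p = 0.0466). It stood at 174 ± 5.91 FPKM in control B cells, and the part of B cell RNA in its difference was not tested.

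The difference between CD4 and CD8 cells was smaller in rEC than in control cells for 8 of 9 members, with a median change of -0.67 against -0.015 for all genes, and 52.1% of all genes below 0. None of these changes passed, where 0.0213% of all genes did (limma interaction, 0 at an unadjusted p under 0.05). Ctla4 gave -1.54 ± 1.11, and Ikzf2 gave 0.29 ± 0.65. Il2ra, with the smallest error, gave -0.67 ± 0.35 (limma, adjusted p = 1.0).

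**Figure D4:**
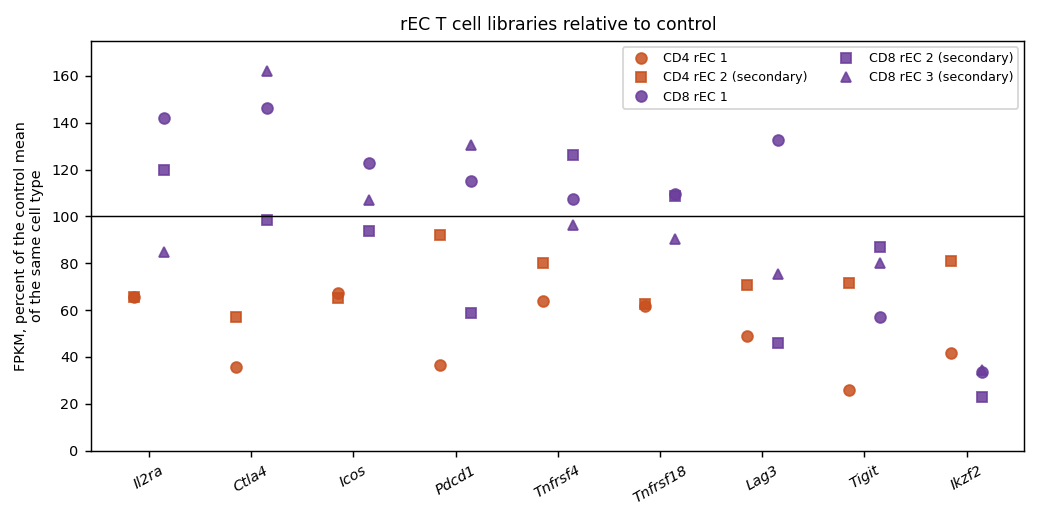
FPKM of each rEC T cell library on the y axis as a percent of the control mean of the same cell type, by member on the x axis, with orange for CD4 and purple for CD8 libraries. Every CD4 point lies below 100, from 25.8 to 91.9, while CD8 points lie on both sides except for Ikzf2 and Tigit, all below 100.

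The third comparison sets T cells, as the mean of CD4 and CD8, against the other blood cells. In control blood all 9 members were higher in T cells than in B cells, where 27.3% of all genes passed and 15.4% were higher (limma). All 9 were also higher than in myeloid cells, where 57.9% passed and 39.9% were higher. The Lag3 call against B cells ended with a pseudocount of 5 (adjusted p = 0.0557). Pdcd1 was listed at 0 in all 3 control B cell and both control myeloid libraries, and Icos reached at most 0.0785 FPKM in them. Tnfrsf18 was not restricted to T cells, at 15.6, 12.3 and 14.4 FPKM in control B cells and 5.80 and 7.44 in control myeloid cells. Tnfrsf4 stood at 8.55, 3.98 and 2.77 in control B cells, overlapping control CD8 cells, and Il2ra at 1.04, 1.48 and 1.83, also overlapping CD8 cells. Tigit was found in myeloid cells of both origins at 2.88 to 4.23 FPKM, above the 1.10 to 2.21 of control B cells. Members did not pass between origins in myeloid cells or B cells (limma, 0 of 9 in each, 0 at an unadjusted p under 0.05), where 0.227% and 0.0% of all genes did.

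In rEC blood 8 members were higher in T than in B cells, where 18.8% of all genes passed and 9.01% were higher (limma). All 9 were higher than in myeloid cells, where 60.5% passed and 42.2% were higher. The Lag3 call against myeloid cells ended with a pseudocount of 5 (adjusted p = 0.133) and without myeloid rEC replicate 1 (0.0742) or 2 (0.108). The member not called was Lag3 against B cells (adjusted p = 0.177), which passed without B cell rEC replicate 1 (adjusted p = 0.0308). Il2ra, Pdcd1 and Tnfrsf18 lost their calls without B cell rEC replicate 2 or without replicate 3, leaving 5 members called. For all 9 the rEC T and B cells overlapped, through B cell rEC replicate 1 and, for Il2ra, through all 3 B cell libraries.

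B cell rEC replicate 1 held all 9 members above the other 2 rEC B cell libraries. Ctla4 stood at 14.6 FPKM there and at 0.279 and 0.513 in the others, Icos at 14.7 against 0.0425 and 0.0409, and Tnfrsf18 at 51.5 against 13.5 and 14.97. Pdcd1 was at 1.95 FPKM and listed at 0 in the others, and Ikzf2 at 2.26 against 0.0281 and 0.018. The T cell marker sum was 1197 FPKM in this library and 12.3 to 21.2 in the other grouped B cell libraries, and the B cell marker sum 1716 against 5756 to 6846. Transcripts of both T cell coreceptors were present, with Cd8a at 184 FPKM and Cd4 at 52.8. As a percent of Cd3e, Pdcd1 (0.987%), Lag3 (2.03%), Tigit (5.18%) and Ikzf2 (1.14%) lay within the range of the CD8 libraries, and the other 5 lay between the CD8 and CD4 ranges. For Lag3 the CD8 range (0.671 to 2.25%) and the CD4 range (1.83 to 3.04%) overlapped, and B cell rEC replicate 1 lay within both. Il2ra was at 1.55% of Cd3e there, against 0.423 to 0.713% in CD8 and 4.18 to 5.73% in CD4 libraries.

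**Figure D5:**
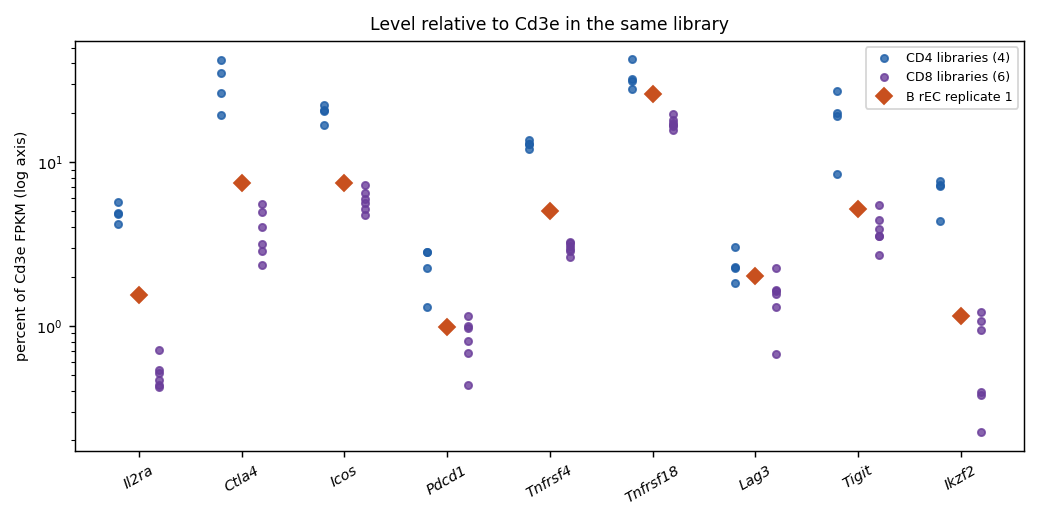
Level of each member as a percent of the Cd3e FPKM of the same library (y axis, log scale), by member on the x axis, for 4 CD4 libraries (blue), 6 CD8 libraries (purple) and B cell rEC replicate 1 (orange diamond). The diamond lies within the CD8 points for 4 members and between the CD8 and CD4 points for 5, among them Ctla4 (7.40%) and Tnfrsf4 (5.06%). For Lag3 it lies within the CD4 points as well.

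In the fourth comparison the members were followed in stem and progenitor cells. Against control B cells 3 of the 9 were higher and against control myeloid cells 4 of the 9, shares near those of all genes. Lag3 was at its highest here, at 7.55, 8.48 and 16.7 FPKM in control and 22.2, 0.917 and 32.3 in rEC LKS-SLAM cells. CD4 cells ranged from 3.66 to 8.53, so that rEC replicate 2 lay below all of them and the other 2 rEC libraries above. Control LKS-SLAM cells exceeded control B cells in Lag3 by 3.12 ± 0.70 on the log2 scale, in Ikzf2 by 2.56 ± 0.41 and in Ctla4 by 2.11 ± 0.70 (limma, adjusted p = 0.000729, 2.04e-05 and 0.0145), where 55.6% of all genes passed and 36.7% were higher. Il2ra was lower (-0.57 ± 0.22, adjusted p = 0.0352, with overlap, where 18.9% were lower), and that call ended without any 1 of 4 libraries: B cell control replicate 2 or 3 or LKS-SLAM control replicate 1 or 2. Against control myeloid cells Lag3, Ikzf2, Ctla4 and Tnfrsf18 were higher, where 66.5% of all genes passed and 49.1% were higher. Ctla4 lost its call without myeloid control replicate 2 (adjusted p = 0.0535) and Tnfrsf18 without myeloid control replicate 1 (0.0875), Ctla4 also under quantile normalisation (0.0551), and Tnfrsf18 under both quantile normalisation (0.137) and median ratio scaling (0.139). Pdcd1, at 0.525, 1.28 and 1.65 FPKM in control LKS-SLAM cells, was listed at 0 in all control B and myeloid libraries. It did not pass (limma, adjusted p = 0.0604 against B and 0.0807 against myeloid cells), but did with a pseudocount of 0.1 (0.00656 and 0.0109) and without the libraries that stood apart (0.0118 and 0.0197).

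The mean of Ctla4 in control LKS-SLAM cells leaned on 1 library, with 2.88, 3.75 and 17.3 FPKM. All 3 libraries lay above every control B cell and myeloid library, which reached at most 0.978 and 0.355 FPKM. Without replicate 3 its difference from B cells was 1.41 and did not pass (limma, adjusted p = 0.11), nor did it after quantile normalisation (0.186). That library also held the highest T cell marker sum of the LKS-SLAM libraries, 46.0 FPKM against 12.2 and 12.6 in the other controls, and the highest B cell sum, 127 against 34.9 and 40.5. Icos stood at 0, 0.293 and 0.913 FPKM in the same 3 libraries. The part of T cell RNA in the Ctla4 level was not tested. Ikzf2, by contrast, was even, at 4.38, 4.67 and 6.43 FPKM, between control CD8 cells and CD4 cells.

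Control T cells exceeded control LKS-SLAM cells in 7 members, all but Lag3 and Ikzf2, where 56.7% of all genes passed and 20.4% were higher (limma). The rEC T cells exceeded rEC LKS-SLAM cells in 6, all but Lag3, Ikzf2 and Pdcd1, where 59.1% passed and 22.3% were higher. Lag3 gave T cell minus LKS-SLAM differences of -0.80 ± 0.63 in control (adjusted p = 0.293) and -1.27 ± 0.63 in rEC cells (0.0915). Without LKS-SLAM rEC replicate 2 the rEC difference was -2.55 (adjusted p = 5.22e-05). Ctla4 and Pdcd1 lost their control calls without LKS-SLAM control replicate 1 (adjusted p = 0.0521 and 0.093). Without both libraries that stood apart, Ikzf2 was called higher in control T cells (0.55, limma, adjusted p = 0.011) and lower in rEC T cells (-0.69, 0.00667). Control Lag3 was then called lower (-0.80, 0.0182). After quantile normalisation Pdcd1 was called higher in rEC T cells (1.39, 0.00194). The shares of all genes that passed at these settings are not given here.

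Between rEC and control LKS-SLAM cells 0 of 9 passed, where 1.32% of all genes did (limma, 0 at an unadjusted p under 0.05). Replicate 2 of the rEC cells, the clone 47G1 library, was the lowest of the 3 for 8 of 9 members, with Lag3 at 0.917 FPKM, Ikzf2 at 1.19 against 6.85 and 6.94, and Tnfrsf18 at 3.55 against 14.1 and 18.6. With both libraries that stood apart left out, Lag3 was higher in rEC cells by 1.30 (limma, adjusted p = 0.0208), where 11.1% of all genes passed. Control replicates 1 and 2, with Lag3 at 7.55 and 8.48 FPKM, held eosinophil, basophil and mast cell marker sums of 2329 and 3941 FPKM. Control replicate 3, with Lag3 at 16.7, held a sum of 39.6, and rEC replicates 1 and 3 held 8.68 and 1.76. The part of such cells in the Lag3 difference was not tested. The 2 remaining rEC libraries differed in NK cell markers: Klrb1c stood at 20.3 FPKM in replicate 1 and 92.3 in replicate 3, while Ncr1 stood at 1.03 and 0.0339 and Klrd1 at 2.22 and 0. Pdcd1 was at 0.474, 0 and 5.10 FPKM in rEC replicates 1, 2 and 3, so that replicate 3 was near CD4 levels.

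The cultured FGRS KLS cells held lower Tnfrsf18, Ikzf2 and Tnfrsf4 than control LKS-SLAM cells, 3 of the 9 members. Of all genes 48.8% passed and 31.7% were lower, a share near that of the members. Tnfrsf18 stood at 5.70, 3.03 and 3.50 FPKM against 15.5, 20.3 and 22.7, with no overlap, a difference of -2.03 ± 0.43 (limma, adjusted p = 0.00062). Ikzf2 stood at 2.12, 0.972 and 0.871 FPKM against 4.38, 4.67 and 6.43, a difference of -1.43 ± 0.41 (limma, adjusted p = 0.00698, 0.0917 under quantile normalisation). Tnfrsf4, at 1.29, 1.97 and 2.18 FPKM against 3.40, 3.03 and 4.45, passed narrowly (-0.72 ± 0.28, limma, adjusted p = 0.0411). This call ended without LKS-SLAM control replicate 1 (0.0696) or 3 (0.137) and without FGRS replicate 1 (0.138) or 2 (0.0673), and the difference was 0.02 under quantile normalisation.

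Lag3 was lower in the same direction, at 6.65, 2.34 and 2.04 FPKM in FGRS cells against 7.55 to 16.7 in control, with no overlap, and did not pass (-1.40 ± 0.70, limma, adjusted p = 0.104). It passed without the libraries that stood apart (0.000686), in a model of these groups alone (0.0243) and with array quality weights (5.2e-06). The shares of all genes that passed at these settings, or had no overlap, are not given here. FGRS replicate 1 was the highest of the 3 for 8 of 9 members, with Ctla4 at 6.33 FPKM and Icos at 2.12 against at most 2.03 and 0.276 in the others. T cell marker sums were 5.88, 3.93 and 3.13 FPKM in the 3 libraries, below all control LKS-SLAM libraries. Macrophage marker sums were 52.7, 925.5 and 346.4 FPKM against 11.5 to 13.8 in control, and myeloid sums 451, 5352 and 2800 against 1110 to 1439. Kit stood at 32.9, 12.3 and 11.6 FPKM in FGRS and at 116 to 133 in control cells. Control LKS-SLAM replicates 1 and 2 held eosinophil, basophil and mast cell sums of 2329 and 3941 FPKM, replicate 3 one of 39.6, and FGRS cells 61.9 to 145.5. The part of these differences in the levels of the members was not tested. Against rEC LKS-SLAM cells Ikzf2 and Tnfrsf18 were lower (limma, adjusted p = 0.0234 and 0.0325, with overlap), where 45.0% of all genes passed and 27.8% were lower. The share of members called lower, 2 of 9, was thus no higher than that of all genes. Both calls ended with a replicate block (0.0526 and 0.0676) and in a model of these 6 libraries alone (0.209 and 0.223). No member was called without LKS-SLAM rEC replicate 1 or 3 or without FGRS replicate 2 or 3, and without LKS-SLAM rEC replicate 2 there were 4. Calls among all genes in this comparison ran from 4671 to 8627 with 1 library left out.

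The members resembled each other more across T cells than within CD8 cells. Over the 10 T cell libraries the 36 pairs had a median Pearson r of 0.922, from 0.65 (Lag3 with Tnfrsf4) to 0.992 (Icos with Il2ra), where points share the split between CD4 and CD8. Over the 6 CD8 libraries alone the median r was 0.089, from -0.64 to 0.858. Over all 29 libraries it was 0.809, and the lowest pair was Lag3 with Il2ra at 0.14. These are descriptions of libraries that share lineage and depth.

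The genes whose log2(FPKM + 1) followed a member most closely over the 29 libraries differed between members. For Il2ra it was Ccr4 (r = 0.944), for Icos the T cell surface gene Cd5 (0.986), for Tnfrsf18 Zfp287 (0.952), for Pdcd1 Rgs16 (0.93) and for Lag3 Cmas (0.938). Tigit and Tnfrsf4 both had Izumo1r among their 3 most alike (0.936 and 0.938), Tnfrsf4 after Sp6 (0.955), and Ctla4 had Bmp7 (0.923). Ikzf2 was followed by Tbc1d4 both over the 29 libraries (0.981) and over the 10 T cell libraries (0.991). Over the T cell libraries the nearest gene to Il2ra was Il1rl1 (0.995), which encodes the interleukin-33 receptor, and to Pdcd1 Tank (0.988).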

How the data were processed

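Poly-A RNA of 30 samples was made into TruSeq v2 libraries without strand information and read as 51 bp pairs, per the labels' protocols. The deposited table gives FPKM per gene symbol. Cufflinks 2.2.1, TopHat2 2.1.0, Trimmomatic 0.36, FastQC 0.11.5, bcl2fastq 2.17 and the build mm10 are listed in the submitters' processing notes, and further normalisation by the authors is not given in the sources used here. Groups came from the titles, and 1 library titled as clone 47G1 but annotated wild type entered no comparison.

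Tests covered the 14083 genes that reached 1 FPKM in 2 or more libraries, on log2(FPKM + 1) with limma 3.58.1 in R 4.3.3, with an intensity trend, in 1 model of 11 group means over 29 libraries (18 residual degrees of freedom). Benjamini-Hochberg adjustment ran over all genes of each of 18 comparisons, two-sided, called at 0.05. Fold changes on this scale understate changes of low genes. Ratios of means are on the FPKM scale. FPKM carry no counts, so counting intervals cannot be given, and relative depth came from the step between values under 0.5 FPKM. The code was tested on simulated data. Plots used matplotlib 3.10.9.

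Members and lists were chosen with earlier results of these data known. All 9 members are named, and up to 4 genes per list, those with the smallest adjusted p, with a few others chosen after their values were seen. The genes most alike are the 3 autosomal named genes with the highest Pearson r. Positions are GENCODE M21. Promoter windows were matched by symbol in RefSeq for 6 members. Alternatives were other pseudocounts, filters, scalings and weights, a replicate block, left-out libraries and smaller models.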

Additional observations from a re-analysis of the deposited data

Results flagged for a closer look

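The library that entered no comparison, titled B220+ and 47G1, held Tnfrsf18 at 16.3 FPKM, above the highest control B cell library (15.6 FPKM). The other members were at or below the highest control B cell library there, with Tnfrsf4 at 4.16 FPKM, Il2ra at 1.08, Ctla4 at 0.765 and Pdcd1, Icos and Ikzf2 listed at 0. Its T cell marker sum was 13.3 FPKM and its B cell marker sum 6080 FPKM.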

How the results depend on the processing

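Of 2796 member values under other settings, 2648 kept their side of the threshold (84 of them not called and changed in sign), 82 gained a call, 61 lost one and 5 changed sign. Members called between control CD4 and CD8 cells numbered 3 with a pseudocount of 0.1, 8 with array quality weights, 8 without both libraries that stood apart and 9 in the groups alone, and 3 to 5 with 1 library left out. Between rEC CD4 and CD8 cells they numbered 5 with a pseudocount of 5, 6 with weights, 6 without both libraries and 7 alone, and 1 to 3 with 1 left out. In CD8 cells between origins 1 passed with weights, 1 without both libraries and 1 alone. In LKS-SLAM cells between origins 3 passed with weights and 1 without both libraries. For FGRS against control LKS-SLAM cells 1 passed after quantile normalisation and 8 with weights, and 2 to 3 with 1 library left out. For FGRS against rEC LKS-SLAM cells 1 passed with a pseudocount of 0.1, 1 after quantile normalisation, 7 with weights, 5 without both libraries, 0 alone, and 0 to 4 with 1 left out. With 1 left out, calls numbered 5 to 9 for rEC T against B cells, 5 to 7 and 6 to 7 for control and rEC T against LKS-SLAM cells, 8 to 9 for rEC T against myeloid cells and 3 to 4 for LKS-SLAM against B or myeloid cells. Where this left 1 library in a group, it was assumed to vary like the others. These counts of members are given without the share of all genes at each setting. All-gene calls moved with the setting too, in LKS-SLAM cells between origins from 186 to as many as 6240. A count of members that rose is therefore not read as a result about the members. With all libraries or the smaller sets, calls among all genes ran from 5730 to 10144 for FGRS against control LKS-SLAM cells. For FGRS against rEC LKS-SLAM cells they ran from 900 to 11581. Weights reversed Ikzf2 between origins in LKS-SLAM cells (0.47), and Ctla4 (-1.01) and Icos (-0.60) between FGRS and rEC LKS-SLAM cells. Quantile normalisation reversed Tnfrsf4 between LKS-SLAM and myeloid cells (-0.91) and between FGRS and control LKS-SLAM cells (0.02). The cause was not tested.

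Replicate numbers are in the titles of the control, FGRS and myeloid rEC libraries, but pair no samples by their labels. Most other rEC titles hold no such number or a different one, and these libraries were numbered here. Deviations of same-numbered control CD4 and CD8 libraries correlated at 0.112 and 0.126. With a replicate block, calls between FGRS and rEC LKS-SLAM cells numbered 0 in place of 2, and no other count of members changed.

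All-gene counts moved more: between control CD4 and CD8 cells from 490 to between 137 and 2946, between rEC CD4 and CD8 cells from 265 to between 107 and 1419, and between origins from 3 to between 2 and 50 in CD4 cells and from 159 to between 52 and 1764 in CD8 cells. Between origins they also ran from 0 to 151 in B cells (0 as reported), 6 to 368 in myeloid cells (32) and 0 to 6240 in LKS-SLAM cells (186), and for the change of the CD4 to CD8 difference from 1 to 110 (3). They ran from 3062 to 7877 for T against B cells in control (3849), 1397 to 6264 in rEC cells (2642), and 900 to 11581 for FGRS against rEC LKS-SLAM cells (6335). Scaling moved the share of calls that were higher. It was 44.7% for control CD4 against CD8 cells and 59.6% with equal sums without Gm25500, and quantile normalisation moved it from 36.0 to 55.0% for control T against LKS-SLAM cells (rEC 37.8 to 52.4%), 68.9 to 57.7% for control T against myeloid cells (rEC 69.7 to 58.7%), 66.1 to 44.1% for LKS-SLAM against B cells, 73.8 to 51.2% for LKS-SLAM against myeloid cells, 35.1 to 50.7% for FGRS against control LKS-SLAM cells, and 12.6 to 27.8% and 5.4 to 43.6% between origins in CD8 and LKS-SLAM cells. With it the median of all genes went from 0.605 to 0.032 for LKS-SLAM against myeloid cells and from -0.207 to 0.071 for control T against LKS-SLAM cells. Values under 1 FPKM have the least precision.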
